A study of Mus musculus with 69 samples.

Results

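The heat shock and DnaJ chaperone genes of mouse kidney tubules were described by their mRNA levels in dissected proximal tubules and collecting ducts after the loss of a kidney. Members were all genes whose symbol places them in the HSP70 and HSP110 (Hspa, Hsph), HSP90, small heat shock protein (Hspb), mitochondrial chaperonin (Hspd, Hspe) or J protein (Dnaja, Dnajb, Dnajc) families. Of 72 such genes in the 4 deposited tables, 63 reached a mean of at least 1 TPM over the animals of at least 1 table and are the members, out of 15229 genes that did so. TPM is a transcript level divided by gene length and scaled to a total of 1e+06 in every library. Of the members, 59 reached that level in all 4 tables. The tables of the first proximal tubule segment (PT-S1) tested 61 members at 24 h and 60 at 72 h, and those of the cortical collecting duct (CCD) 62 at each time. The 9 genes below the minimum everywhere were Dnajb7, Dnajb8, Dnajb13, Dnajc5b, Dnajc5g, Hspa1l, Hspa12b, Hspb3 and Hspb9.

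All mice were wild-type C57BL/6 males operated on at 7 weeks of age, either by a sham operation or by unilateral nephrectomy (UNx), the surgical excision of 1 kidney. Tubules were taken 24 h or 72 h later. PT-S1 held 3 sham and 4 UNx animals at 24 h and 5 of each at 72 h, whereas CCD held 4 sham and 3 UNx animals at 24 h and 4 of each at 72 h. The 69 libraries, amplified from small amounts of polyA RNA, were averaged within an animal, and the labels do not say which PT-S1 and CCD libraries came from the same mouse. Values below are TPM per animal, and n counts animals.

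Chaperones of the HSP70 family bind unfolded stretches of other proteins in a cycle driven by ATP. J proteins bring them their clients and speed ATP hydrolysis, and HSP110 proteins exchange the nucleotide. HSP90 takes over partly folded clients such as kinases and steroid receptors, and small heat shock proteins hold unfolded clients until HSP70 arrives. In the cytosol the stress-inducible members are switched on by heat shock factors, in the endoplasmic reticulum (ER) by the unfolded protein response. Mitochondria have an HSP70 of their own and the HSP60/HSP10 chaperonin. Proximal tubule cells are rich in mitochondria and secretory and endocytic membranes.

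RefSeq start-site windows (GRCm38.p6, 250 bases before to 50 after the start) were found for 50 of the 63 members, in 67 windows of 300 bases. They were searched on both strands for the ER stress element (CCAAT and CCACG with 9 bases between them), which 0.119% of all 32851 windows hold, and for a heat shock element of 3 inverted repeats (GAA, TTC and GAA with 2 bases between neighbours), which 0.603% hold. The ER element was matched in Hspa5, Hsp90b1 and Dnajc3, and the heat shock element in Hspd1, Hspe1, Hsph1 and Dnajb6. In Hsph1 the match lay after the annotated start. An unfolded protein response element (TGACGTGG), held by 0.676% of all windows, was also searched and was matched in Dnajc25. Members without a window, among them Hsp90aa1, Hsp90ab1, Dnajc12, Hspa8 and Hspa9, were not searched. The 3 ER members are printed because their levels are described together below, and the stretch between Hspd1 and Hspe1 because these partner genes share it and read away from each other. Capitals mark the matches, sequences run 5′ to 3′ on the gene's strand (plus strand for the shared stretch), and each ends at the base before the annotated start. The places are chr2:34771840-34772089 (plus strand) for Hspa5, chr10:86705445-86705694 (minus) for Hsp90b1, chr14:118937682-118937931 (plus) for Dnajc3 and chr1:55087933-55088147 for the 215 bases between Hspd1 and Hspe1.
Hspa5: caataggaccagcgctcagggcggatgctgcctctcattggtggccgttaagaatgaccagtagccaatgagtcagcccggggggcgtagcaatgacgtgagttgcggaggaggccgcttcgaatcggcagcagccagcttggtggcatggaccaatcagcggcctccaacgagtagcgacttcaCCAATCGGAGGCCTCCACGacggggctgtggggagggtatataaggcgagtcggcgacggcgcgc
Hsp90b1: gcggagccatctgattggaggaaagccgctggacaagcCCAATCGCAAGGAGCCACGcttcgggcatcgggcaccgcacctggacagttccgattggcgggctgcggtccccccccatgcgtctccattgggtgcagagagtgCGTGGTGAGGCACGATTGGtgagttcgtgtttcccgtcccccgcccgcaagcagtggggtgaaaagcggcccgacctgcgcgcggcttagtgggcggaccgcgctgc
Dnajc3: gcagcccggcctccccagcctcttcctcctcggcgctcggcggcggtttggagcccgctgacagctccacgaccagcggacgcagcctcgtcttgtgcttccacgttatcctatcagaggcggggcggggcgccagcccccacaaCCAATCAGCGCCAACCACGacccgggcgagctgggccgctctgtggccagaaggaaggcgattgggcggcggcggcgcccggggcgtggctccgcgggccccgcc
Hspd1 and Hspe1: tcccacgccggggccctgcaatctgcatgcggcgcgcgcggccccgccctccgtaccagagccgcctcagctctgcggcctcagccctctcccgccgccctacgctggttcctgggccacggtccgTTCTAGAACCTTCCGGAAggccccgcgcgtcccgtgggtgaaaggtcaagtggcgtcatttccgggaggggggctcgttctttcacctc
Hsp90b1 held 2 ER elements, in opposite orientation, and Hspa5 and Dnajc3 held 1 each. In the stretch shared by Hspd1 and Hspe1, 2 matches to the heat shock element on opposite strands overlapped. A match describes letters in a window and not a bound site.

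The segment labels were checked against marker genes. The summed TPM of 8 proximal S1/S2 markers was 6323 to 14955 in the PT-S1 animals and 2.13 to 71.3 in the CCD animals, and that of 8 principal cell markers 71.5 to 135 in PT-S1 and 22267 to 66949 in CCD. PT-S1 tubules also held markers of the S3 segment (6 genes, 577 to 3267 TPM in sum). CCD tubules also held intercalated cell markers (8 genes, 2591 to 4842 TPM in sum) and thick ascending limb markers (6 genes, 789 to 5239). A lower level in such bulk samples cannot tell fewer cells of a type from less RNA per cell. Of the 69 libraries, 5 stood apart, with a median correlation with the other libraries of their table under 0.92. They were 1 library each of sham animals 1 and 3 of PT-S1 at 24 h, UNx animals 1 and 2 of PT-S1 at 72 h, and sham animal 1 of CCD at 72 h. The pair at 72 h detected 9247 and 9632 genes at 1 TPM or more, against a median of 11754 over the UNx libraries of that table. In these 2 libraries 40 and 35 of the 63 members lay more than 1 log2 unit below the same animal's other library, and 5 and 4 lay more than 1 unit above it. Results that rest on these libraries are therefore given with and without them.

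In sham tubules constitutive chaperones had the highest levels in both segments. Hspa8, the constitutive cytosolic HSP70, was the most abundant member of PT-S1, with 868 ± 152 TPM (SD, n = 3) at 24 h and 1059 ± 156 (SD, n = 5) at 72 h. In CCD the most abundant was Hsp90ab1, the constitutive HSP90, with 1390 ± 153 at 24 h and 1640 ± 259 at 72 h (SD, n = 4 each). Hspa5 (BiP), the HSP70 of the ER, ranked 2 or 3 in every table, at 605 ± 159 and 391 ± 155 TPM in PT-S1 and 826 ± 262 and 849 ± 232 in CCD. The ranges of Hspa8 and Hspa5 overlapped between the segments at both times. Levels across the segments come from tables normalized separately and were described, not tested.

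Among the stress-inducible cytosolic members, Hspa1a, Hspa1b, Dnajb1 and Dnajb4 stood far higher in CCD, and Hsp90aa1 and Hsph1 differed less. Hspa1a, the inducible HSP70, was at 2.28, 0.545 and 7.11 TPM in the sham PT-S1 animals of 24 h and at 124, 299, 102 and 184 TPM in those of CCD. The CCD mean was 53.5 times the PT-S1 mean at 24 h and 13.4 times at 72 h. The first ratio was 125 without sham animal 3 of PT-S1 and 40.7 without the libraries of low correlation. Its neighbour Hspa1b gave 52.6 and 14.2 times (105 at 24 h and 22.0 at 72 h without sham animal 3 of PT-S1). Without the libraries of low correlation these ratios were 39.2 and 14.5. The coding sequences of Hspa1a and Hspa1b are nearly identical, and how the counting tool divided their reads is not known. Dnajb1, the J protein partner of inducible HSP70, had CCD means of 123 and 93.6 TPM against 22.9 and 25.2 in PT-S1. The related Dnajb4 had 74.9 and 55.6 against 12.2 and 12.8. Hsp90aa1, the inducible cytosolic HSP90, was 1.87 and 2.39 times higher in CCD, and Hsph1 (HSP105), the inducible nucleotide exchange factor, 1.22 and 1.78 times, with overlapping ranges at 24 h. Beside these values stand the immediate early genes, whose summed TPM over 12 genes had a median of 10705 and 14342 in sham CCD animals at 24 h and 72 h and of 204 and 216 in sham PT-S1 animals. The part of that difference in the chaperone levels was not tested.

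**Figure D1:**
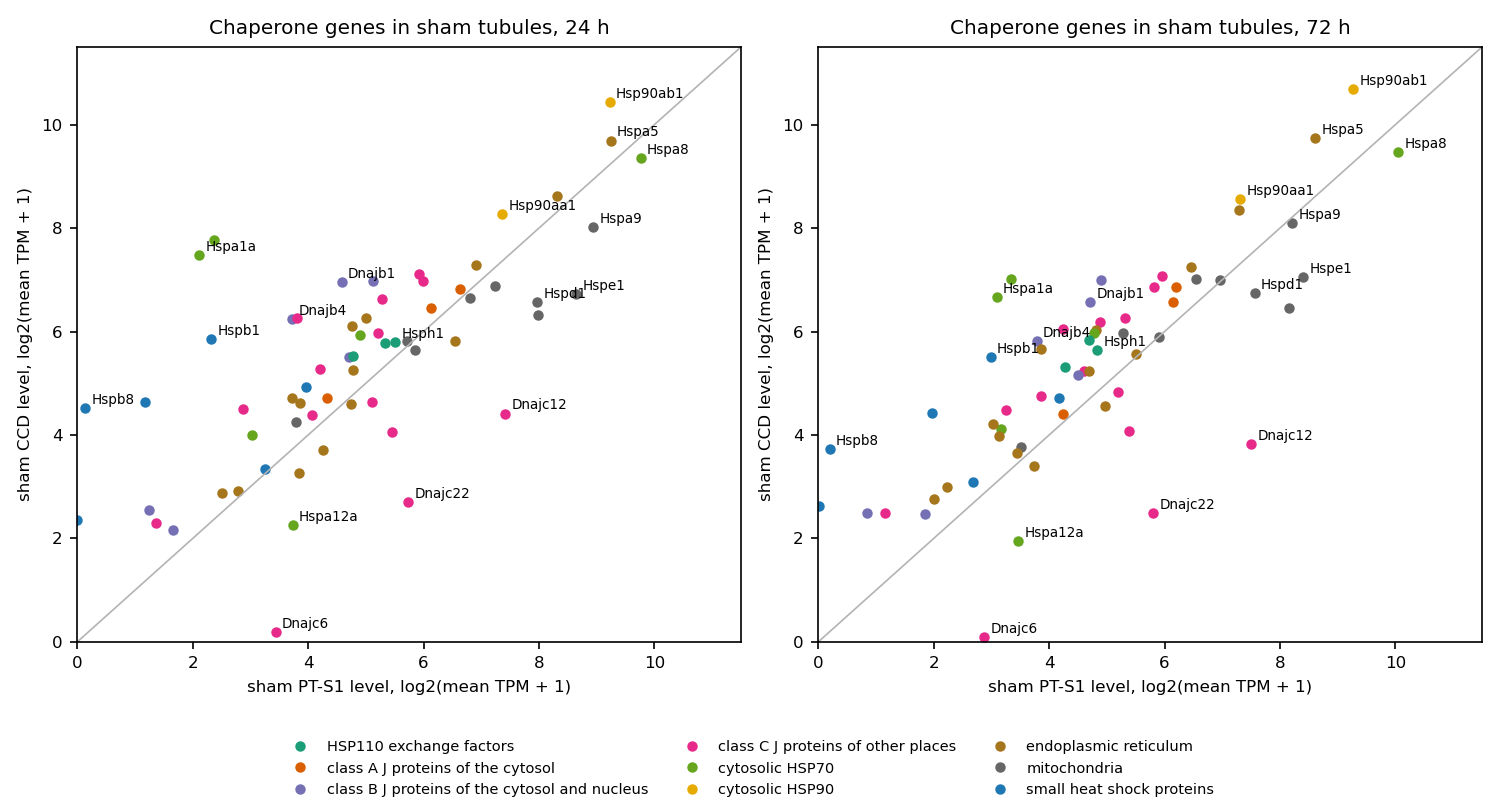
Mean level of the 63 members in sham animals, PT-S1 on the horizontal and CCD on the vertical axis, both as log2(mean TPM + 1), at 24 h (left) and 72 h (right), with 1 point per gene coloured by role and a line of equal levels. Hspa1a, Hspb8, Hspb1 and Dnajb1 lie above the line and Dnajc12, Dnajc22, Dnajc6 and Hspe1 below it at both times.

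Of the 6 members with an Hspb symbol, 5 had all sham CCD animals above all sham PT-S1 animals at each time. Hspb6 was the exception, at 8.56 against 9.12 TPM at 24 h and 5.39 against 7.53 at 72 h, with overlapping ranges. Hspb11 also overlapped at 72 h without the libraries of low correlation. Hspb8, which works with BAG3 in the disposal of misfolded proteins, was at 0.101 ± 0.066 TPM in sham PT-S1 (SD, n = 3) and 21.9 ± 2.57 in sham CCD (SD, n = 4) at 24 h, a ratio of 218. At 72 h the ratio was 83.4. With so low a PT-S1 level these ratios move with single animals, to 350 and 126 without sham animal 3 of PT-S1. They were 185 and 89.3 without the libraries of low correlation. Hspb1 (HSP27), a binder of unfolded proteins and actin, was at 3.99 ± 3.15 against 56.6 ± 19.3 TPM at 24 h, a ratio of 14.2 that was 24.6 without sham animal 3 of PT-S1. This ratio was 11.3 without the libraries of low correlation. At 72 h it was 6.39 with all libraries and 6.14 without those of low correlation. Hspb7 and Hspb8 passed the minimum in CCD alone. All sham CCD animals lay above all sham PT-S1 animals for 31 members at both times, and 10 members lay the other way at both times. These counts were 35 and 9 without the libraries of low correlation. The share of all genes with such an order was not computed. These counts and that of the Hspb genes thus do not set the members apart.

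Members on the PT-S1 side of the line included a J protein for single clients, a clathrin uncoating factor and the mitochondrial chaperonin. Dnajc12, a J protein that assists the folding of aromatic amino acid hydroxylases such as phenylalanine hydroxylase, was at 170 ± 11.9 TPM in sham PT-S1 and 20.3 ± 2.87 in sham CCD at 24 h, and at 180 ± 12.1 against 13.2 ± 3.27 at 72 h. Dnajc22 was 9.54 and 11.9 times higher in PT-S1. Dnajc6 (auxilin), which uncoats clathrin vesicles with Hspa8, reached 9.85 and 6.33 TPM in PT-S1 and at most 0.24 TPM in any CCD animal. The mitochondrial chaperonin subunits Hspe1 (HSP10) and Hspd1 (HSP60) were at 400 and 250 TPM in sham PT-S1 against 105 and 94.2 in sham CCD at 24 h. Hspa9, the mitochondrial HSP70, also lay higher in every sham PT-S1 animal at 24 h, at 330 to 765 against 236 to 270 TPM, and at 309 to 445 without the libraries of low correlation. At 72 h its ranges overlapped, at 296 ± 42.1 against 273 ± 33.4 TPM.

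No member passed the test for UNx against sham in any table (limma on log2(TPM + 1), adjusted p under 0.05 over all genes tested). The share of all genes called was 0% in PT-S1 at both times, 0.987% in CCD at 24 h and 0.595% in CCD at 72 h. At an unadjusted p under 0.05 there were 5 higher and 4 lower members in PT-S1 at 24 h, where 2.59% and 15.2% of all genes were. The balance turned without the libraries of low correlation, with 2 higher and 8 lower (1.68% and 23% of all genes), and 0.00847% of all genes and 0 members passed the adjusted test. With all libraries the counts were 1 higher and 15 lower in PT-S1 at 72 h (1.33% and 19.1% of all genes), 0 and 10 in CCD at 24 h (5.55% and 9.97%), and 1 and 4 in CCD at 72 h (4.66% and 2.82%). The median change of the members was -0.13, -0.29, -0.083 and -0.066 log2 units in that order of tables, against -0.19, -0.29, -0.038 and 0.010 over all genes tested. Without the libraries of low correlation the medians at 72 h in PT-S1 became -0.028 for the members and -0.021 for all genes, and 7 members were higher and 11 lower at an unadjusted p under 0.05 (9.6% and 8.1% of all genes). In CCD at 72 h 3 were then higher and 5 lower (5.53% and 8.64%), and 0.937% of all genes and 0 members passed the adjusted test.

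**Figure D2:**
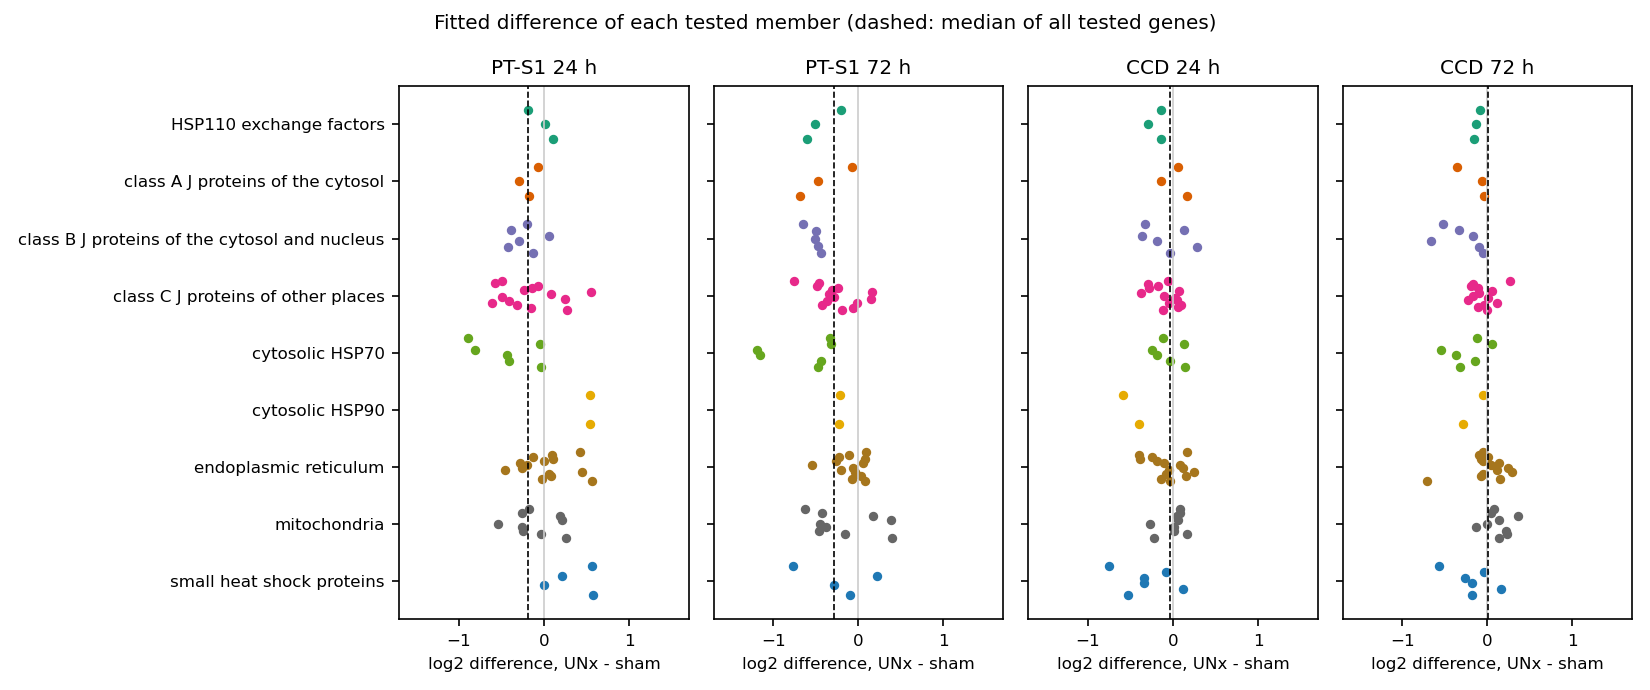
Fitted log2 difference of UNx minus sham for every tested member (1 point per gene), in rows by role, for the 4 tables. The dashed line is the median of all genes tested, -0.19, -0.29, -0.038 and 0.010 from left to right, and the 2 cytosolic HSP90 genes lie right of it in PT-S1 at 24 h and left of it in CCD at 24 h.

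The 2 cytosolic HSP90 genes had opposite signs in the segments at 24 h. Hsp90ab1 was at 529, 499 and 761 TPM in the sham and 698, 927, 836 and 927 in the UNx animals of PT-S1, so that sham animal 3 alone lay within the UNx range. The difference was 0.54 log2 units (SE 0.19, 95% interval 0.13 to 0.96, limma adjusted p = 0.254), on a scale on which the median gene was at -0.19. In CCD it was at 1423, 1445, 1523 and 1169 TPM in sham and 977, 1054 and 1118 in UNx animals, and the groups did not overlap. Its difference there was -0.40 (SE 0.10, 95% interval -0.63 to -0.17, limma adjusted p = 0.11). Hsp90aa1 had 141, 128 and 221 TPM in sham and 196, 249, 244 and 232 in UNx PT-S1 (0.54, SE 0.19, limma adjusted p = 0.254). In CCD it had 330, 320, 322 and 253 TPM in sham and 160, 232 and 232 in UNx (-0.58, SE 0.15, limma adjusted p = 0.114), again with no overlap. Groups that did not overlap, with UNx below sham, were found for 8 members of CCD at 24 h, where 9.3% of all genes had them. Beside these CCD values, the summed TPM of the 8 principal cell markers was 25206 to 50599 in sham and 48195 to 66949 in UNx animals, and 3 of the 8 were higher and 0 lower at an unadjusted p under 0.05. That of the 6 thick ascending limb markers was 1261 to 5239 in sham and 1742 to 1957 in UNx, and that of the 6 S3 markers 121 to 202 and 95.6 to 139, with 2 lower and 0 higher in each. None of these markers passed the adjusted test, and their part in the chaperone levels was not tested.

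The difference between the segments' effects at 24 h, CCD minus PT-S1, was -0.94 for Hsp90ab1 (SE 0.21, 95% interval -1.39 to -0.49, limma adjusted p = 0.109) and -1.12 for Hsp90aa1 (SE 0.25, 95% interval -1.66 to -0.58, limma adjusted p = 0.112). Of all genes 0.137% passed this test and 0 members did. Both genes passed without the libraries of low correlation (-0.94 and -1.16, limma adjusted p = 0.025 each), as did 1.64% of all genes. The sham PT-S1 values of Hsp90ab1 were then 618, 499 and 612 TPM, all below the UNx animals. Both also passed without sham animal 3 of PT-S1 at 24 h (limma adjusted p = 0.0291 each). Over the fits that left out 1 animal, 0 to 163 of all genes passed. At 72 h Hsp90ab1 was at 615 ± 57.4 TPM in sham and 528 ± 79.5 in UNx PT-S1 (SD, n = 5 each), with overlapping ranges. In CCD it was at 1640 ± 259 in sham and 1334 ± 114 in UNx (SD, n = 4 each), a difference of -0.29 (limma adjusted p = 0.627).

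Between the times, 72 h minus 24 h, the effect of UNx in PT-S1 differed by -0.77 for Hsp90ab1 and -0.75 for Hsp90aa1, and neither passed the test, as no gene of the table did (0%, limma adjusted p = 0.998 each). Without the libraries of low correlation both passed, at -0.69 (SE 0.16, limma adjusted p = 0.0399) and -0.89 (SE 0.17, limma adjusted p = 0.0331), among 1.63% of all genes. The single other member that passed there was Hspa12a, an atypical HSP70 relative, at 0.97 (SE 0.22, limma adjusted p = 0.042). In those libraries Hspa12a was lower in UNx than in sham by fitted value at 24 h (-0.86) and near the sham level at 72 h (0.10), with 10.1 ± 1.79 TPM in sham and 10.5 ± 1.56 in UNx (SD, n = 5 each). In CCD no gene passed the test between the times.

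**Figure D3:**
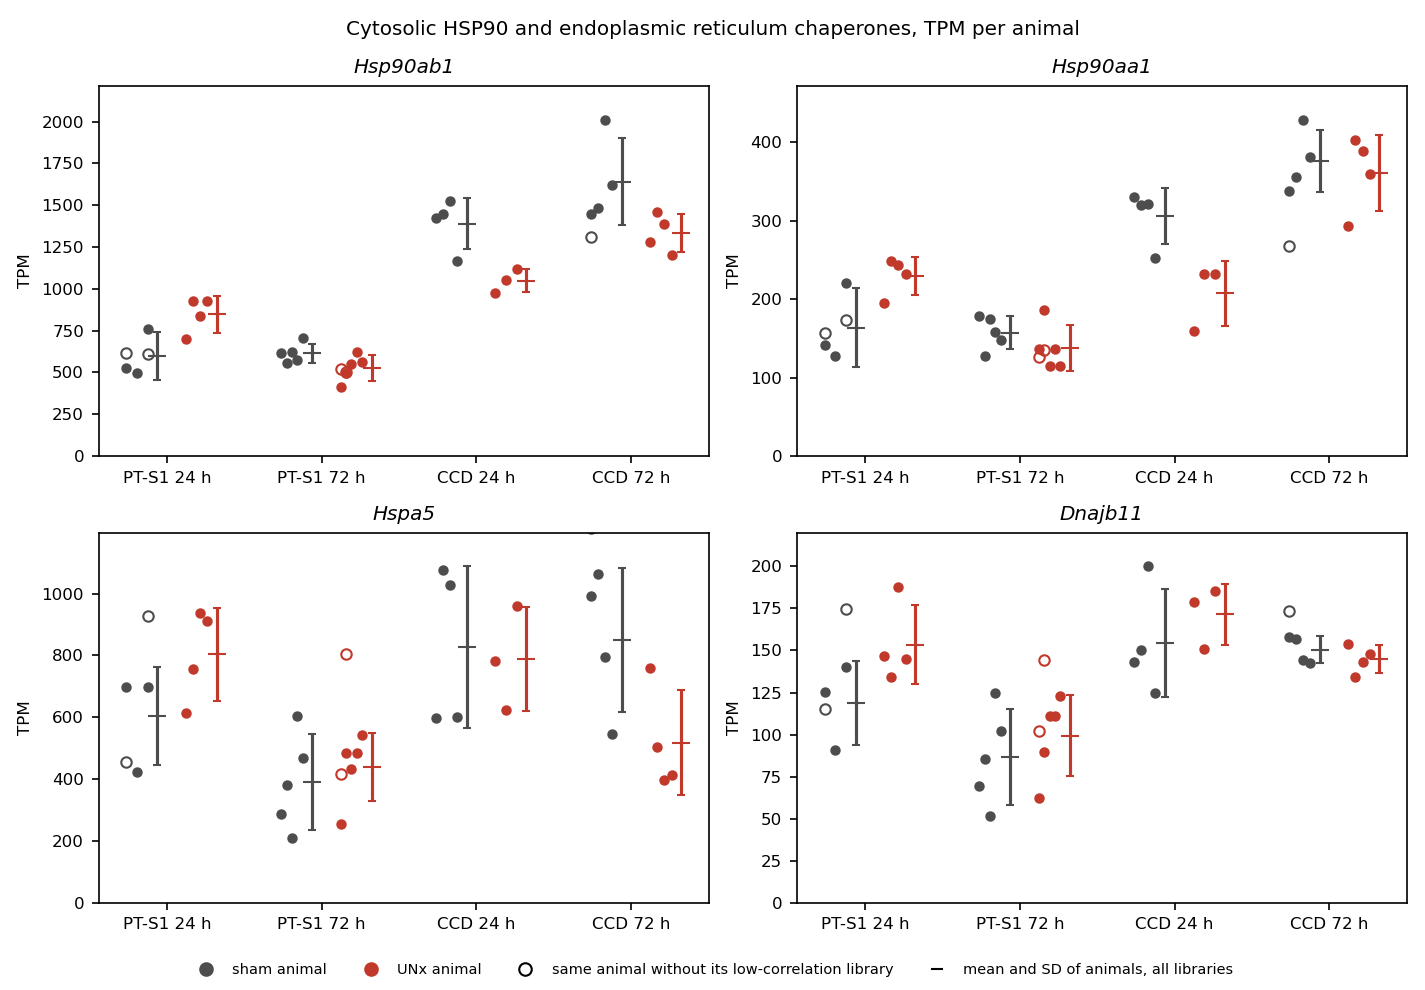
TPM of Hsp90ab1, Hsp90aa1, Hspa5 and Dnajb11 in every sham (grey) and UNx (red) animal of the 4 tables, with the mean and SD over animals. Open circles give the same animal without its library of low correlation. Hsp90ab1 runs from 698 to 927 TPM in UNx and from 499 to 761 in sham PT-S1 at 24 h, and from 977 to 1118 against 1169 to 1523 in CCD.

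Among the 14 ER members none passed the test in either segment. Hspa5 was at 696, 422 and 697 TPM in sham and 613, 755, 937 and 911 in UNx PT-S1 at 24 h (0.57, SE 0.21, 95% interval 0.11 to 1.02, limma adjusted p = 0.254), with the lowest UNx animal within the sham range. Dnajb11 (ERdj3), its J protein for unfolded clients, was at 126, 91.0 and 140 against 147, 134, 188 and 145 TPM (0.42, SE 0.18, limma adjusted p = 0.273). Of the other 2 members with a printed ER element, Hsp90b1 (GRP94), the HSP90 of the ER, was at 317 ± 130 TPM in sham and 290 ± 38.9 in UNx (SD, n = 3 and 4), and at 261 ± 122 in sham without the libraries of low correlation. Its fitted difference was 0.086 with and 0.25 without them. Dnajc3 (P58IPK), an ER J protein that also inhibits the kinase PERK, was at 92.7 ± 25.5 and 89.5 ± 14.0, and at 80.3 ± 12.6 in sham without those libraries, with fitted differences of 0.062 and 0.16. The order of the sham and UNx means of both genes thus turned with these libraries. Without the libraries of low correlation the difference of Hspa5 was 0.51 (limma adjusted p = 0.271) and sham animal 3 stood at 927 TPM. That of Dnajb11 was then 0.32 (limma adjusted p = 0.363), with sham animal 3 at 175 TPM, within the UNx range.

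At 72 h in PT-S1 the fitted values of ER members shifted with the libraries of low correlation. With all libraries Hspa5 was at 391 ± 155 TPM in sham and 439 ± 111 in UNx (SD, n = 5 each). Without them the UNx animals were at 417, 805, 434, 484 and 541 TPM against 288, 382, 208, 604 and 470 in sham, and Dnajb11 was at 102, 145, 111, 111 and 123 against 69.4, 85.5, 51.5, 125 and 102. For Dnajb11 the difference was then 0.50 (limma adjusted p = 0.238). The ranges overlapped in both genes. In CCD at 72 h Hspa5 was at 991, 1064, 795 and 546 TPM in sham and 760, 504, 397 and 412 in UNx (-0.71, SE 0.25, limma adjusted p = 0.473). Dnajb9 (ERdj4), a J protein that restrains the stress sensor IRE1, had the smallest p of any member in CCD at 24 h, with 25.0, 25.2, 25.8 and 25.4 TPM in sham and 16.8, 20.3 and 20.8 in UNx (-0.39, SE 0.10, limma adjusted p = 0.107). Its groups did not overlap.

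Inducible HSP70 and its partners had lower means in UNx than in sham PT-S1 at 72 h, and none passed the test. Hspa1a was at 8.10, 5.54, 17.3, 1.18 and 5.49 TPM in sham and 2.69, 1.63, 2.14, 1.91 and 0.73 in UNx animals (-1.19, SE 0.39, 95% interval -2.04 to -0.34, limma adjusted p = 0.237). Sham animal 4 lay within the UNx range, UNx animal 5 lay below every sham animal, and the sham values spread more widely than the UNx values. Libraries of 1 sham animal also differed, at 4.70 and 30.0 TPM in animal 3 and 0.49, 11.1 and 4.89 in animal 5. In sham animal 4 they were close, at 0.95, 1.40 and 1.18 TPM. Hspa1b had the same order of means, at 9.07 ± 7.73 and 2.28 ± 1.03 TPM, and Hspb1 was at 6.94 ± 4.02 and 2.95 ± 0.542 (SD, n = 5 each). The libraries of Hspb1 held 4.34 and 15.3 TPM in sham animal 1 and 4.67 and 20.1 in sham animal 3. In sham animal 2 they held 4.93 and 6.34 TPM. Dnajb1 was at 25.7, 28.1, 33.6, 18.6 and 20.0 TPM in sham and 16.0, 12.1, 15.4, 23.2 and 19.6 in UNx (-0.65, SE 0.25, limma adjusted p = 0.237). Without the libraries of low correlation its difference was -0.22 (limma adjusted p = 0.542), whereas that of Hspa1a was -1.01 (limma adjusted p = 0.247) and that of Hspb1 -0.75 (limma adjusted p = 0.212).

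The Hsph1 difference rested on those libraries. Its values at 72 h in PT-S1 were 26.7, 28.1, 30.0, 24.8 and 28.4 TPM in sham and 18.9, 18.9, 22.8, 19.9 and 19.3 in UNx, with no overlap (-0.60, SE 0.17, limma adjusted p = 0.237). UNx animals 1 and 2 had 5.44 and 5.89 TPM in their library of low correlation and 32.3 and 31.9 in the other, and without the former the difference was -0.14 (limma adjusted p = 0.664). In CCD at 72 h the ranges of Hspa1a, Hspa1b, Dnajb1, Hsph1 and Hspb1 overlapped between sham and UNx. Hspa1a was at 77.3, 113, 75.0 and 139 TPM in sham and 63.0, 147, 49.5 and 40.8 in UNx. Dnajb4 had the smallest p of any member in that table, with 46.3, 80.3, 53.1 and 42.7 TPM in sham and 34.6, 43.4, 27.6 and 30.9 in UNx (-0.66, SE 0.21, limma adjusted p = 0.351). In the same animals 11 of 12 immediate early genes were lower in UNx at an unadjusted p under 0.05, with summed TPM of 8845 to 19524 in sham and 3355 to 11290 in UNx, and 0 passed the adjusted test. Without the library of low correlation 10 of the 12 were lower at that level. The part of this in the chaperone levels was not tested.

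The chaperonin partners Hspe1 and Hspd1 had opposite values in single libraries. Hspe1 was at 343, 286, 334, 386 and 332 TPM in the sham PT-S1 animals of 72 h and at 912, 963, 280, 339 and 350 in UNx animals. In both high animals the library of low correlation held 1537 and 1600 TPM and the other library 288 and 326. In the same 2 libraries Hspd1, which shares the stretch printed above, was at 83.2 and 82.2 TPM against 204 and 239 in the others, and Hspa9 was at 35.7 and 46.4 against 325 and 411. Dnajc19, a J protein of the import motor that was singled out after its values were seen, went with Hspe1, at 716 and 761 TPM against 267 and 317. At 24 h the library of low correlation of sham animal 1 was the reverse, with 1677 TPM of Hspa9 against 289 and 328 in the same animal's others and 167 TPM of Hspe1 against 382 and 408. Without these libraries Hspe1 was at 336 ± 35.7 in sham and 317 ± 31.2 in UNx at 72 h (SD, n = 5 each). In CCD at 24 h Hspe1 was at 107, 112, 106 and 93.3 TPM in sham and 86.5, 87.2 and 95.03 in UNx (-0.22, SE 0.083, limma adjusted p = 0.251).

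**Figure D4:**
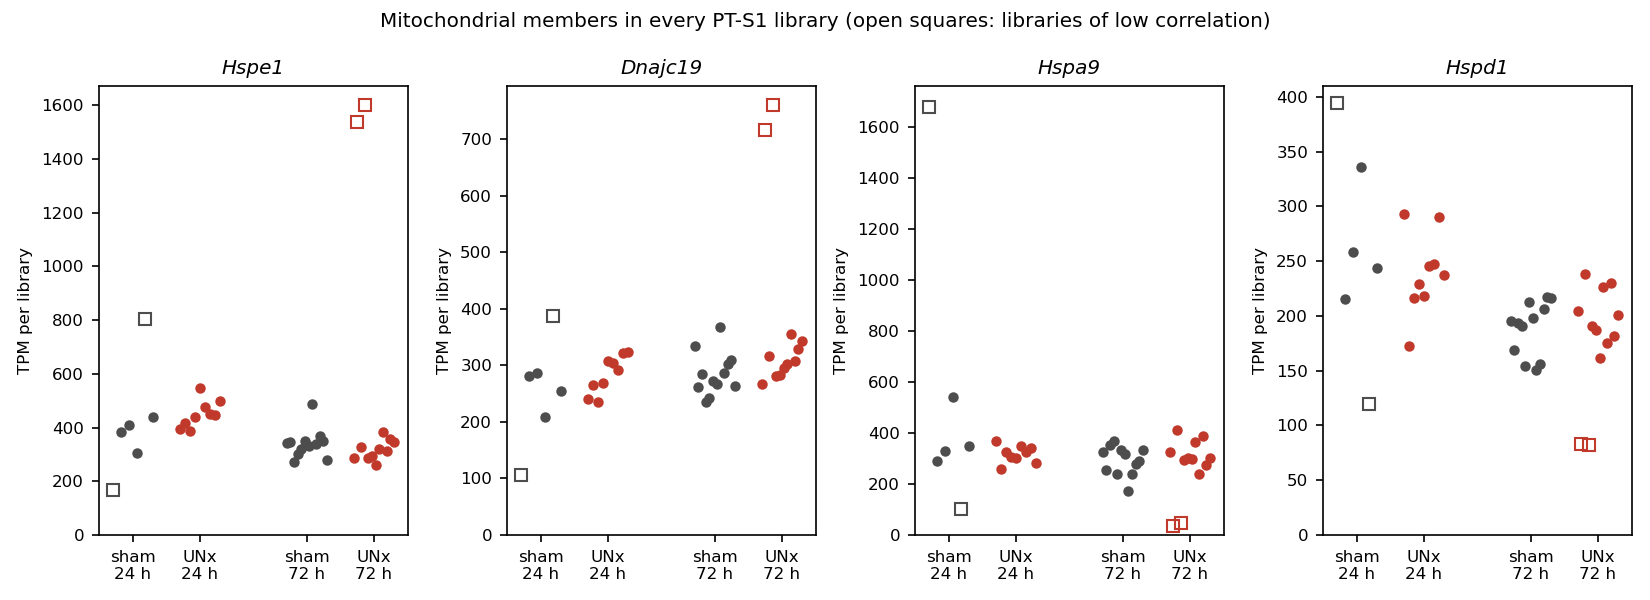
TPM of Hspe1, Dnajc19, Hspa9 and Hspd1 in every PT-S1 library, sham in grey and UNx in red, at 24 h and 72 h, with open squares for the libraries of low correlation. The 2 UNx squares of 72 h lie at 1537 and 1600 TPM for Hspe1 and at 35.7 and 46.4 TPM for Hspa9, outside all filled points.

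Dnajc12 gave the smallest p of any member in PT-S1 at 72 h. It was at 175, 174, 169, 180 and 200 TPM in the 5 sham animals and at 96.5, 97.3, 116, 112 and 117 in the 5 UNx animals. Every UNx animal lay below every sham animal, which held for 5 members and 5.34% of all genes, and for 2 members and 1.73% without the libraries of low correlation. The difference was -0.75 log2 units (SE 0.15, 95% interval -1.07 to -0.43), with an unadjusted p of 0.000216 and a limma adjusted p of 0.237. Without the 2 libraries of low correlation UNx animals 1 and 2 were at 113 and 125 TPM and the groups still did not overlap. Dnajc12 then passed the test (-0.62, limma adjusted p = 0.0386), as the single gene called among 11954 (0.00837%). At 24 h the PT-S1 values were 184, 163 and 163 TPM in sham and 138, 108, 78.2 and 162 in UNx (-0.49, SE 0.23, limma adjusted p = 0.292), also lower in every UNx animal, though the closest animals differed by under 1 TPM. UNx below sham without overlap was found for 9 members there and for 19% of all genes, and for 9 and 21.2% without the libraries of low correlation.

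In CCD, where its level was far lower, the Dnajc12 groups overlapped at both times when all libraries were kept. It was at 18.7, 18.8, 24.6 and 19.3 TPM in sham and 16.3, 20.1 and 22.4 in UNx at 24 h, and at 17.5, 11.6, 9.84 and 13.7 against 17.0, 15.7, 14.9 and 14.6 at 72 h (0.27, SE 0.16, limma adjusted p = 0.814). Without its library of low correlation sham animal 1 was at 11.4 TPM, and every UNx animal then lay above every sham animal at 72 h (0.39, limma adjusted p = 0.193). That order was found for 3 members there and for 3.71% of all genes. The difference of the effects at 72 h, CCD minus PT-S1, was 1.02 (SE 0.20, 95% interval 0.60 to 1.44, limma adjusted p = 0.179). It was 1.01 without the libraries of low correlation, where it passed (limma adjusted p = 0.0015), and 9 genes in all passed there (0.0813%).

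**Figure D5:**
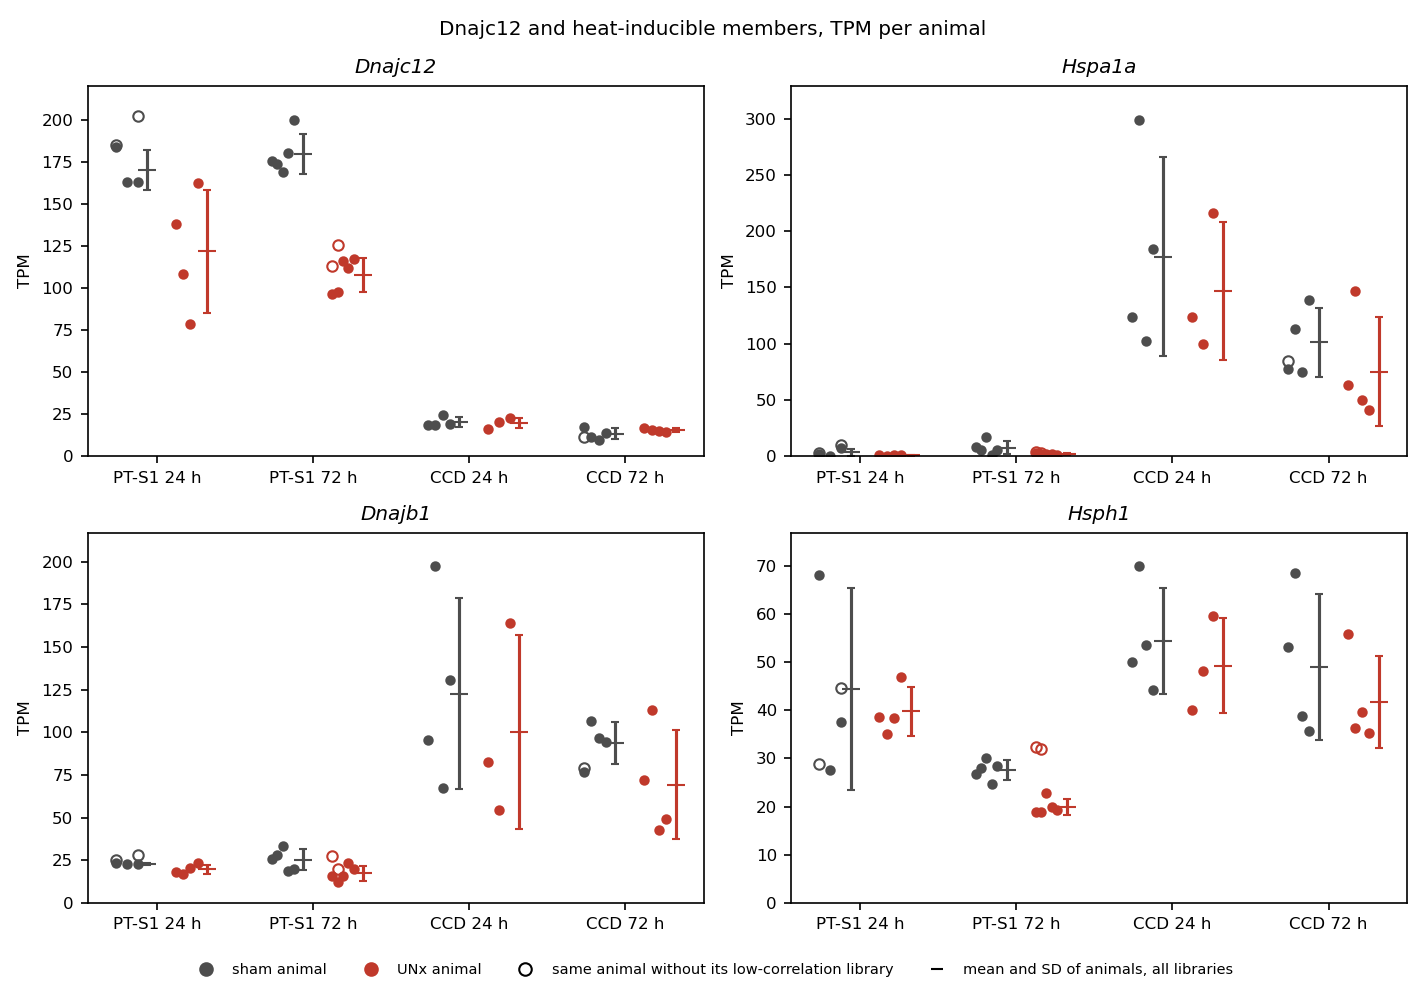
TPM of Dnajc12, Hspa1a, Dnajb1 and Hsph1 in every sham (grey) and UNx (red) animal of the 4 tables, with the mean and SD over animals and open circles for an animal without its library of low correlation. Dnajc12 separates the groups in PT-S1 at 72 h, 169 to 200 TPM against 96.5 to 117, and the open circles of UNx Hsph1 lie at 32.3 and 31.9 TPM, above the sham range.

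Among the other members none passed the test, and those with small p are given by their values. Hspa12a was at 18.2, 10.7 and 7.97 TPM in sham and 5.64, 6.54, 3.87 and 5.92 in UNx PT-S1 at 24 h (-0.90, SE 0.25, limma adjusted p = 0.254), and without the libraries of low correlation at 10, 10.7 and 10.3 in sham (-0.86, limma adjusted p = 0.0793). Dnajc22 was at 54.1, 50.2 and 52.9 TPM in sham and 72.0, 72.4, 124 and 55.9 in UNx at that time (0.56, SE 0.24, limma adjusted p = 0.274), the 1 member with every UNx animal above every sham animal, as were 2.32% of all genes. Its sham animals without the libraries of low correlation were at 59.4, 50.2 and 59.2 TPM and the groups overlapped (0.45, limma adjusted p = 0.266). The 3 members with every UNx animal above every sham animal were then Hsp90aa1, Hsp90ab1 and Hspe1, beside 1.68% of all genes. Dnajc17, a J protein of the spliceosome, was at 8.61, 7.59, 10.2, 8.54 and 7.97 TPM in sham and 5.56, 5.42, 5.20, 7.08 and 6.22 in UNx at 72 h (-0.49, SE 0.15, limma adjusted p = 0.237), and the difference was -0.35 with overlapping groups without the libraries of low correlation. In CCD Hspb8 was at 23.1, 19.2, 20.4 and 24.9 TPM in sham and 11.1, 21.0 and 14.2 in UNx at 24 h (-0.53, SE 0.19, limma adjusted p = 0.237).

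The genes that work with the members gave no call in any table. A list of 22 genes held co-chaperones of HSP70 and HSP90 together with the heat shock factors Hsf1 and Hsf2, and 0 passed. In PT-S1 at 72 h 10 were lower, Hsf1 among them, and 0 higher at an unadjusted p under 0.05. There 19.1% of all genes were lower, and the median change of the list was -0.47. Without the 2 libraries of low correlation 4 were lower and 1 higher there (8.1% and 9.6% of all genes), with a median of -0.15. The 8 subunits of the TRiC chaperonin, which folds actin and tubulin, had 0 at that level in every table when all libraries were kept. The other genes of ER folding and the unfolded protein response were 17 in 18 rows, with Ddit3 under more than 1 identifier. In PT-S1 at 24 h 6 rows were higher and 1 lower at an unadjusted p under 0.05 (2.59% and 15.2% of all genes). Their median change was 0.12, and the counts were 2 and 1 without the libraries of low correlation. With all libraries the lower row was of Ddit3, at 2.95 ± 4.08 TPM in sham (SD, n = 3) and 0 in UNx. In PT-S1 at 72 h 0 of 17 tested were in either direction with all libraries, and 9 were higher and 0 lower without the 2 of low correlation, with a median of 0.45. In CCD 3 were higher and 1 lower at 24 h (5.55% and 9.97% of all genes), whereas at 72 h 1 was higher and 4 were lower (4.66% and 2.82%). The higher row and 1 of the lower rows at 72 h were both of Ddit3. Sham against UNx, they were at 0 against 9.28 TPM and 236 against 92.2 TPM. Of 8 genes listed with the mitochondrial chaperones, 1 was lower at an unadjusted p under 0.05 in PT-S1 at 24 h. It was the protease gene Lonp1, and with all libraries 0 were at that level elsewhere. The medians over all genes were -0.29 in PT-S1 at 72 h, -0.021 there without the libraries of low correlation, and -0.19 at 24 h.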

How the data were processed

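The authors deposited 4 tables of TPM values per gene and library, 1 for each segment and time. STAR, RSEM 1.3.3 and the build GRCm39 are named in the submitters' processing notes, and the annotation release is not given in the sources used here. TPM keeps no depth, so the depth of the libraries is unknown and no counting error was computed. Of the 69 columns, 47 matched 1 sample and 22 a group and animal.

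Members, roles and lists were chosen with earlier results of these data known. Sample titles number the sham and UNx mice, and that number defined the animal. Libraries were averaged within an animal on log2(TPM + 1), so fold changes understate low genes. Genes with a mean of at least 1 TPM were tested with limma 3.58.1 in R 4.3.3 (trended moderation, two-sided, Benjamini-Hochberg over all genes tested, threshold 0.05). Differences of effects came from a 4-group model over genes passing in both tables. Whether animals were separately operated is taken from the titles, so p-values measure the spread between these animals.

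Named members were those called, the 3 with the smallest p per table, the 5 highest sham levels per table, the 3 highest and 3 lowest ratios of CCD to PT-S1 sham levels at 24 h with at least 5 TPM in 1 segment, and a fixed set (Hspa1a, Hspa1b, Hspa8, Hsph1, Hsp90aa1, Hsp90ab1, Dnaja1, Dnajb1, Hspb1, Hspb8, Hspa5, Hsp90b1, Dnajb9, Dnajb11, Dnajc3, Hspa9, Hspd1, Hspe1, Dnajc12). Others are named after their values were seen, where a small count is spelled out. The fits were tested on simulated data. Alternatives changed the pseudocount, filter, scaling, replicate unit, averaging and libraries kept, and left out each animal. Sham levels, counts of groups that do not overlap and the lists of other genes without the libraries of low correlation, and ratios of sham levels without each animal, were added after seeing the data.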

Additional observations from a re-analysis of the deposited data

Results flagged for a closer look

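Among the named members, 144 groups of 4 or 5 animals were examined for an animal whose gap to its nearest neighbour takes up most of the group's range, a rule that chance meets in about 5% of groups, and 10 groups met it. In PT-S1 at 24 h, Dnaja1 was at 84.9 TPM in UNx animal 4 with the next at 57.5, and Dnajb4 was at 6.95 TPM in UNx animal 3 with the next at 8.71. In PT-S1 at 72 h, UNx animal 4 had 13.2 TPM of Dnajb4 with the next at 8.94 and 2.01 TPM of Hspb1 with the next at 2.99, and UNx animal 3 had 22.8 TPM of Hsph1 with the next at 19.9. In CCD at 24 h, sham animal 3 had 24.6 TPM of Dnajc12 with the next at 19.3, and sham animal 4 had 252.6 TPM of Hsp90aa1 with the next at 320.3. In CCD at 72 h, UNx animal 1 had the highest Dnaja1, Hspa8 and Hspb8 of its group, at 83.98, 708.5 and 11.3 TPM with the next at 66.9, 528.2 and 9.88.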

How the results depend on the processing

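The count of called members was 0 in each table and in each difference of effects, and it stayed 0 under the other pseudocount, both filters, both scalings and the mean on the linear scale. With every library as a replicate it was 1 in PT-S1 at 72 h (Dnajc12), 5 in CCD at 24 h (Hsp90aa1, Hsp90ab1, Dnajb9, Dnajb12, Hspb8), 2 for the segment difference at 24 h (Hsp90aa1, Hsp90ab1) and 1 for that at 72 h (Dnajc12). With the animal as a random effect it was 1, 4, 2 and 0 in the same order. Libraries of 1 animal are not independent, and the share of all genes called under either setting is not given. The count of called members there thus does not set them apart. Without the libraries of low correlation it was 1 in PT-S1 at 72 h, 3 for the time difference in PT-S1 (Hsp90aa1, Hsp90ab1, Hspa12a), 2 for the segment difference at 24 h and 1 for that at 72 h; CCD at 24 h had no such library. Leaving out 1 animal gave 0 to 2 for the segment difference at 24 h (2 without sham animal 3 of PT-S1) and 0 for the other 7 counts. For that segment difference, 0 to 163 of all genes passed in these fits. The replicate block gave 0 members in each table and difference. Same-numbered animals deviated with correlations from -0.37 to 0.33, over 0.1 in 5 of 15 pairs. So few pairs cannot tell whether the numbers pair animals.

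Of 749 values of named members under other settings, the 4 that reversed were all of Dnajc12 in CCD at 24 h, at 0.012 under quantile normalization, 0.018 with every library as a replicate, 0.040 without sham animal 3 and 0.065 without UNx animal 1, against -0.054; leaving out 1 animal gave -0.16 to 0.065. The cause was not tested. Depth is unknown, so low TPM such as those of Hspa1a in PT-S1 carry no counting interval.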
